A study of Ovis aries with 15 samples.

Results

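The circadian clock genes described here are PER1, PER2, PER3, CRY1, CRY2, CLOCK, NR1D1, NR1D2, DBP and TEF in the liver of fetal sheep (Ovis aries). They were taken by name from a count table of 31411 genes, all 10 names were present, and all 10 were among the 16977 genes with enough reads to be tested. Poly(A) RNA of the liver was sequenced in 4 libraries from gestational day 100 (GD100), 5 from GD124 and 6 from GD144. The last of these stages lies shortly before birth. The labels give the tissue, the stage and a sample code for each library. The letters that open the code are the same within a stage and differ between the 3 stages, their meaning is not stated, and what they mark cannot be told apart from stage in any comparison here. The sources used here do not give breed, sex, litter, any treatment or the time of day of collection, so stage and any of these that followed it cannot be told apart. It is also open from the labels whether each library is its own fetus. The p-values therefore measure only how far these samples spread, which may be technical.

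The clock is a loop of transcription that runs in most cells of the body with a period near that of the day. CLOCK and its partner BMAL1 switch on the PER and CRY genes, whose proteins return to the nucleus and block CLOCK and BMAL1. A second loop runs through the nuclear receptors NR1D1 and NR1D2 (REV-ERB alpha and beta), which repress BMAL1, and the ROR receptors, which activate it. DBP and TEF are transcription factors of the PAR bZIP family that carry the rhythm to output genes, and in adult liver DBP is among the most strongly cycling transcripts. PER1 is also a direct target of the glucocorticoid receptor, and fetal cortisol rises before birth in sheep.

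Libraries held 24215612 to 38247295 counts, and levels are given as CPM, counts scaled to a common library size, after correction with TMM (trimmed mean of M-values) factors. Because transcript lengths were not used, levels are compared between stages and not between genes. All 8 hepatocyte markers looked up were detected in every library, and their sum ranged from 31058 to 103810 CPM in GD100 libraries, 121290 to 149740 CPM in GD124 libraries and 101350 to 139630 CPM in GD144 libraries. The sum over 7 erythroid markers ranged from 3243 to 8522 CPM in GD100 libraries, 1247 to 2593 CPM in GD124 libraries and 6.66 to 608 CPM in GD144 libraries, and the highest value at GD144 was that of replicate 3. Between GD124 and GD144, the interval in which PER1 and CRY2 rose, 7 of 7 erythroid markers fell. In that interval 6 of 6 endothelial markers rose, from a median sum of 303 to 560 CPM, and 6 of 6 proliferation markers fell, from 505 to 50.04 CPM. The part of these in the clock gene results was not tested. In GD100 replicates 2 to 4, 10.6 to 10.8% of the values were fractional, against 5.09 to 6.2% in the other 12 libraries. In such bulk tissue, fewer cells of a type and less RNA per cell cannot be told apart. In the RefSeq annotation of assembly ARS-UI_Ramb_v3.0, NR1D1 overlaps THRA, CRY1 overlaps MTERF2 and 2 further genes, and TEF overlaps a long noncoding RNA. A strand setting for the counting is not given in the sources used here, and values of these 3 genes are therefore uncertain, and CRY1 carried fractional counts in 15 of 15 libraries. The same limit holds for NPAS2, BHLHE40, BHLHE41, CIART, BTRC, FBXW7 and PPARGC1A, named below, which also overlap other genes. CIART carried fractional counts in 7 libraries.

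The clock genes did not all change alike with gestation. Between GD124 and GD144 PER1 rose 4.11-fold and CRY2 rose 3.80-fold. CLOCK and NR1D2 rose less, 1.33-fold and 1.32-fold. DBP fell, and PER2, PER3, CRY1, NR1D1 and TEF did not pass the test. Between GD100 and GD124 CLOCK, NR1D1 and NR1D2 rose and CRY2 fell. In the edgeR quasi-likelihood test, with p-values adjusted over all tested genes and a threshold of 0.05, 6 of the 10 genes differed between stages, against 56.3% of all tested genes. That share lies near the background, so the number of clock genes called says little by itself.

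**Figure D1:**
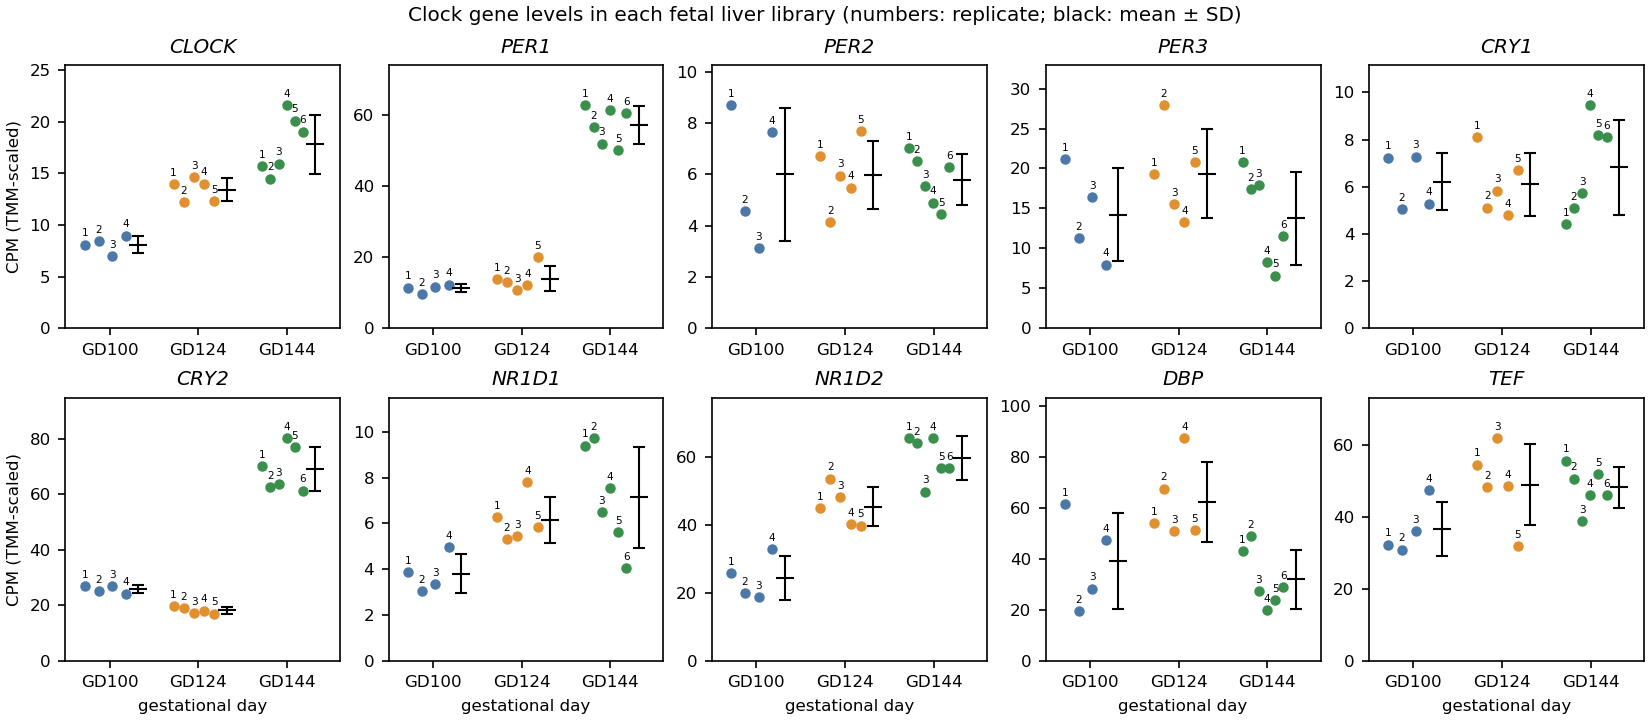
CPM (vertical axis, linear, from 0) of the 10 clock genes in each library by stage (horizontal axis), with the replicate number above each point and the mean ± SD in black. The 6 GD144 libraries lie above all earlier ones for PER1 and CRY2, while PER2 and CRY1 overlap at all stages.

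The positive arm is represented by CLOCK, a histone acetyltransferase and DNA-binding partner of BMAL1. CLOCK stood at 8.08, 8.45, 6.95 and 8.95 CPM in the 4 GD100 libraries. At GD124 it stood at 13.9, 12.2, 14.6, 13.99 and 12.3 CPM. At GD144 the lowest library was at 14.5, the median at 17.5 and the highest at 21.6 CPM. The GD100 libraries all lay below the others, and the GD124 and GD144 libraries touched, since the lowest GD144 value lay just under the highest GD124 value. CLOCK rose in both intervals, by log2 0.73 ± 0.14 (SE, edgeR adjusted p = 0.00138) and by log2 0.41 ± 0.13 (SE, edgeR adjusted p = 0.0238). Over the whole span CLOCK rose 2.19-fold. The later rise was not called without GD124 replicate 2, without GD124 replicate 5 or without GD144 replicate 5, at an edgeR adjusted p of at most 0.0615.

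Among the period genes, which encode the PAS-domain proteins of the repressor complex, PER1 alone passed the test. PER1 stood at 11.4, 9.57, 11.6 and 12.2 CPM at GD100. At GD124 it stood at 13.8, 13.0, 10.7, 12.1 and 19.9 CPM. At GD144 the lowest library was at 49.9, the median at 58.4 and the highest at 62.6 CPM. The GD144 libraries lay far above both earlier stages, which overlapped. The log2 change was 0.31 ± 0.16 (SE) in the earlier interval, with an edgeR adjusted p of 0.139, and 2.04 ± 0.15 (SE) in the later one, with an edgeR adjusted p of 3.66e-07. The later change exceeded the earlier one by log2 1.73 ± 0.27 (SE, edgeR adjusted p = 0.0034). Leaving out GD144 replicate 3, the library with the highest erythroid sum of its stage, gave log2 2.065 for PER1 in the later interval.

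PER2 did not pass in the same libraries. It averaged 6.00 ± 2.59 CPM (SD, n = 4) at GD100, 5.99 ± 1.33 (SD, n = 5) at GD124 and 5.78 ± 0.991 (SD, n = 6) at GD144. Its log2 change was -0.01 ± 0.27 (SE) in the earlier and -0.05 ± 0.24 (SE) in the later interval, and the edgeR adjusted p was 0.992 and 0.904. At GD100 PER2 spread from 3.13 CPM in replicate 3 and 4.57 in replicate 2 to 7.62 in replicate 4 and 8.68 in replicate 1. In replicates 2 and 3 the summed hepatocyte markers were 31058 and 35499 CPM, against 77669 and 103810 CPM in replicates 1 and 4. Within stages, over all 15 libraries, the relation of PER2 to this sum did not pass (Pearson r = 0.61, permutation p = 0.299, adjusted p = 0.672 over 100 relations). The part of the hepatocyte markers in the spread of PER2 at GD100 alone was not tested.

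PER3 averaged 14.2 ± 5.82 CPM at GD100, 19.4 ± 5.62 at GD124 and 13.7 ± 5.79 at GD144 (SD, n = 4, 5 and 6). Its changes of log2 0.44 ± 0.35 (SE) and -0.50 ± 0.31 (SE) did not pass, with edgeR adjusted p of 0.343 and 0.261. The spread within GD144 was wide, with 20.8, 17.4 and 17.9 CPM in replicates 1 to 3 and 8.24, 6.57 and 11.5 CPM in replicates 4 to 6.

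The cryptochromes, flavin-binding proteins that bind CLOCK and BMAL1 and block them, also differed from each other. CRY2 stood at 27.0, 25.2, 27.0 and 24.2 CPM at GD100. At GD124 it stood at 19.8, 18.9, 17.1, 18.1 and 17.0 CPM. At GD144 the lowest library was at 61.3, the median at 66.8 and the highest at 80.2 CPM. No 2 stages overlapped, and GD124 was the lowest. CRY2 first fell by 0.51 ± 0.11 on the log2 scale (SE, edgeR adjusted p = 0.0026) and then rose by log2 1.93 ± 0.10 (SE, edgeR adjusted p = 1.10e-08). The difference between both changes was log2 2.43 ± 0.19 (SE, edgeR adjusted p = 1.00e-05). CRY1 averaged 6.21 ± 1.21, 6.11 ± 1.34 and 6.83 ± 2.01 CPM (SD, n = 4, 5 and 6), and its edgeR adjusted p was 0.951 and 0.628 in the earlier and later interval. At GD144 CRY1 stood at 4.42, 5.11 and 5.73 CPM in replicates 1 to 3 and at 9.45, 8.20 and 8.10 CPM in replicates 4 to 6, so the libraries of this stage fell on both sides of the earlier means. MTERF2, which overlaps CRY1, averaged 10.4, 6.22 and 8.43 CPM at the 3 stages.

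Both REV-ERB genes, whose haem-binding products repress BMAL1, rose in the earlier interval. NR1D2 stood at 25.7, 19.97, 18.7 and 32.8 CPM at GD100. At GD124 it stood at 44.9, 53.5, 48.2, 40.2 and 39.7 CPM. At GD144 the lowest library was at 49.7, the median at 60.3 and the highest at 65.5 CPM. The GD100 libraries lay below all others and the later stages overlapped. NR1D2 rose by log2 0.90 ± 0.16 (SE, edgeR adjusted p = 0.000814) and then by log2 0.40 ± 0.14 (SE, edgeR adjusted p = 0.0496). The later call is marginal, since it was lost when any of 9 single libraries was left out (GD124 replicates 1, 3, 4 and 5 or GD144 replicates 1, 2, 4, 5 and 6), at an edgeR adjusted p of at most 0.119.

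NR1D1 stood at 3.88, 3.04, 3.35 and 4.97 CPM at GD100. At GD124 it stood at 6.28, 5.33, 5.44, 7.79 and 5.84 CPM. At GD144 the lowest library was at 4.05, the median at 7.03 and the highest at 9.73 CPM. The first 2 stages did not overlap, while GD144 overlapped both. NR1D1 rose by log2 0.69 ± 0.25 (SE, edgeR adjusted p = 0.0414) in the earlier interval and stood at log2 0.22 ± 0.22 (SE, edgeR adjusted p = 0.502) in the later one. Over the whole span NR1D1 rose by log2 0.91 ± 0.24 (SE, edgeR adjusted p = 0.00444). The earlier call ended without any 1 of 8 libraries (GD100 replicates 1 to 3, GD124 replicates 1, 3, 4 and 5 or GD144 replicate 4), at an edgeR adjusted p of at most 0.128, with total counts as the only scaling (0.128), with DESeq2 size factors (0.0511) and without the filter on low counts (0.0511). When replicate 1 alone stood for GD100, NR1D1 was called in neither the earlier interval nor the whole span (edgeR adjusted p = 0.292 and 0.109). THRA, the thyroid hormone receptor gene that overlaps NR1D1, averaged 18.9 ± 4.50, 20.1 ± 1.10 and 27.3 ± 2.59 CPM (SD, n = 4, 5 and 6). It rose in the later interval by log2 0.44 ± 0.13 (SE, edgeR adjusted p = 0.0201) and stood at log2 0.08 ± 0.15 (SE, edgeR adjusted p = 0.69) in the earlier one.

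The output genes DBP and TEF encode related factors that bind the same DNA element. DBP stood at 61.4, 19.4, 28.3 and 47.2 CPM at GD100. At GD124 it stood at 54.0, 67.5, 50.9, 87.4 and 51.1 CPM. At GD144 the lowest library was at 19.8, the median at 28.2 and the highest at 48.9 CPM. Every GD144 library lay below every GD124 library, and the GD100 libraries overlapped both. DBP fell by 0.96 ± 0.29 on the log2 scale in the later interval (SE, edgeR adjusted p = 0.0212), which was not called without GD124 replicate 4 or without GD144 replicate 4 (edgeR adjusted p at most 0.062). The earlier change of log2 0.67 ± 0.32 (SE) did not pass (edgeR adjusted p = 0.123) with all libraries. Without GD100 replicate 1 it was log2 0.98 and passed (edgeR adjusted p = 0.0339), and with that replicate as the only GD100 library it was log2 0.015. The 2 lowest GD100 libraries for DBP, replicates 2 and 3, are those with the lowest hepatocyte sums. Within stages, over all 15 libraries, the relation of DBP to this sum did not pass (Pearson r = 0.54, permutation p = 0.263, adjusted p = 0.659 over 100 relations).

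TEF averaged 36.7 ± 7.55, 49.1 ± 11.1 and 48.2 ± 5.84 CPM (SD, n = 4, 5 and 6). Its log2 change was 0.42 ± 0.18 (SE, edgeR adjusted p = 0.0787) in the earlier interval and -0.02 ± 0.16 (SE, edgeR adjusted p = 0.929) in the later one. TEF passed in the earlier interval without GD100 replicate 4 or without GD124 replicate 5, with the lowest edgeR adjusted p at 0.0147. Over the whole span TEF stood at log2 0.39 ± 0.17 (SE, edgeR adjusted p = 0.0615), and it passed there without GD100 replicate 4, GD124 replicate 5 or GD144 replicate 3 (0.015 to 0.0406). GD124 replicate 5 held 31.8 CPM, against 48.3 to 62.0 CPM in the other GD124 libraries.

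**Figure D2:**
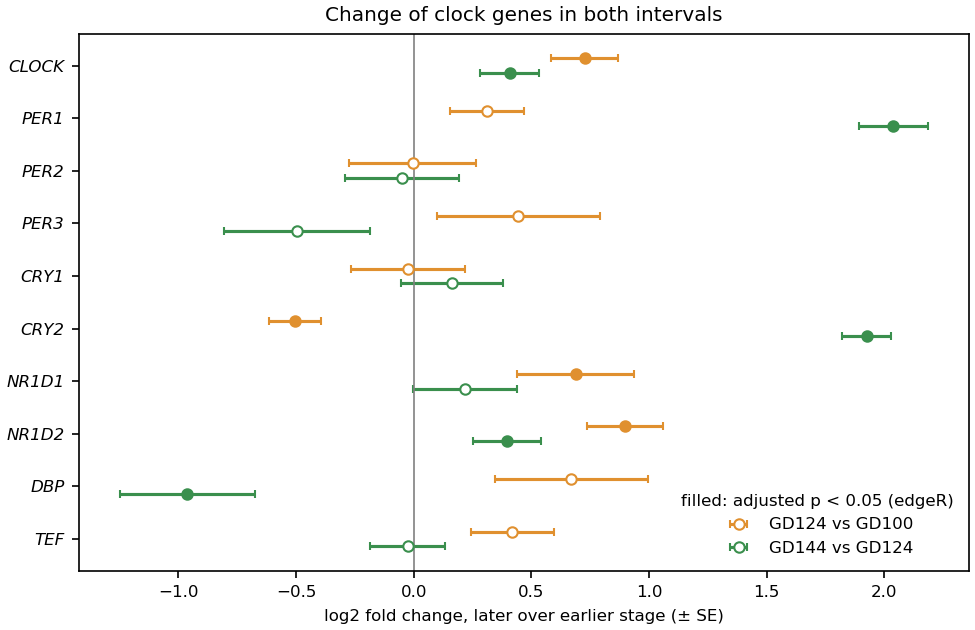
Log2 fold change of each clock gene (horizontal axis) with its standard error, for GD124 against GD100 in orange and GD144 against GD124 in green, filled where the edgeR adjusted p was under 0.05. PER1 (2.04) and CRY2 (1.93) lie far to the right in the later interval, and DBP (-0.96) lies to the left.

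Counted by interval, 3 of the 10 genes rose and 1 fell between GD100 and GD124, and 34% of all tested genes were called in that comparison, 16.6% higher and 17.4% lower. Between GD124 and GD144, 4 rose and 1 fell, against 27.5% of tested genes called, 12.1% higher and 15.4% lower. Between GD100 and GD144, 5 rose (PER1, CRY2, CLOCK, NR1D1 and NR1D2) and 0 fell, against 55% called, 27.1% higher and 27.9% lower. The count of falling genes at an unadjusted p under 0.05 was also 0 there, and DESeq2 called 5 higher and 0 lower as well. The change between both intervals differed for 2 of 10 genes, PER1 and CRY2, against 5.9% of tested genes, 2.15% with a larger and 3.75% with a smaller later change. In the earlier interval the stages did not overlap for 4 genes, 3 higher and 1 lower (24.3% of tested genes, 11.6% higher and 12.6% lower). In the later interval this held for 3 genes, 2 higher and 1 lower (18.8%, 7.81% higher and 11% lower), and over the whole span for 4 genes, all higher (40%, 19.2% higher and 20.8% lower). The median log2 change of the 10 genes was 0.43 in the earlier and 0.19 in the later interval, against 0.02 and -0.01 over all tested genes. Comparisons that share a stage share its libraries.

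Ratios of read counts within a library do not depend on how libraries are scaled, and they describe how the 2 genes of a pair differed. They were added after the values of these genes in the same libraries were seen. Their p-values are therefore not independent support for differences within these pairs. The PER1 to PER2 ratio was 1.31 to 3.71 in the GD100 libraries, 1.79 to 3.13 in the GD124 libraries and 8.66 to 12.5 in the GD144 libraries. On the log2 scale it rose by 2.10 in the later interval (exact permutation test, two-sided, p = 0.00217, the smallest that 5 against 6 libraries allow, adjusted p = 0.0152 over 21 ratio comparisons). The CRY2 to CRY1 ratio went from 2.44 to 3.77 at GD124 to a range of 7.55 to 15.8 at GD144, a rise of 1.79 on the log2 scale with the same exact permutation p of 0.00217 and adjusted p of 0.0152. For DBP to TEF the log2 ratio fell by 1.002 in the later interval (exact permutation p = 0.00866, adjusted p = 0.026), with ranges of -0.28 to 0.85 at GD124 and -1.22 to -0.05 at GD144. NR1D2 to NR1D1 stood at log2 2.66 ± 0.119, 2.89 ± 0.37 and 3.12 ± 0.402 (SD, n = 4, 5 and 6), and none of its 3 comparisons passed after adjustment (exact permutation, adjusted p at least 0.0909). The ratio of CLOCK to its partner BMAL1 was narrow at GD144, with 1.13 to 1.21 in 6 libraries, against 0.991 to 1.63 at GD124. Its 3 comparisons gave exact permutation adjusted p of 0.075 to 0.103. Of NR1D1 to the overlapping THRA, 0 of 3 comparisons passed after adjustment (exact permutation, adjusted p of 0.0909 to 0.421), and 1 had an unadjusted p under 0.05.

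**Figure D3:**
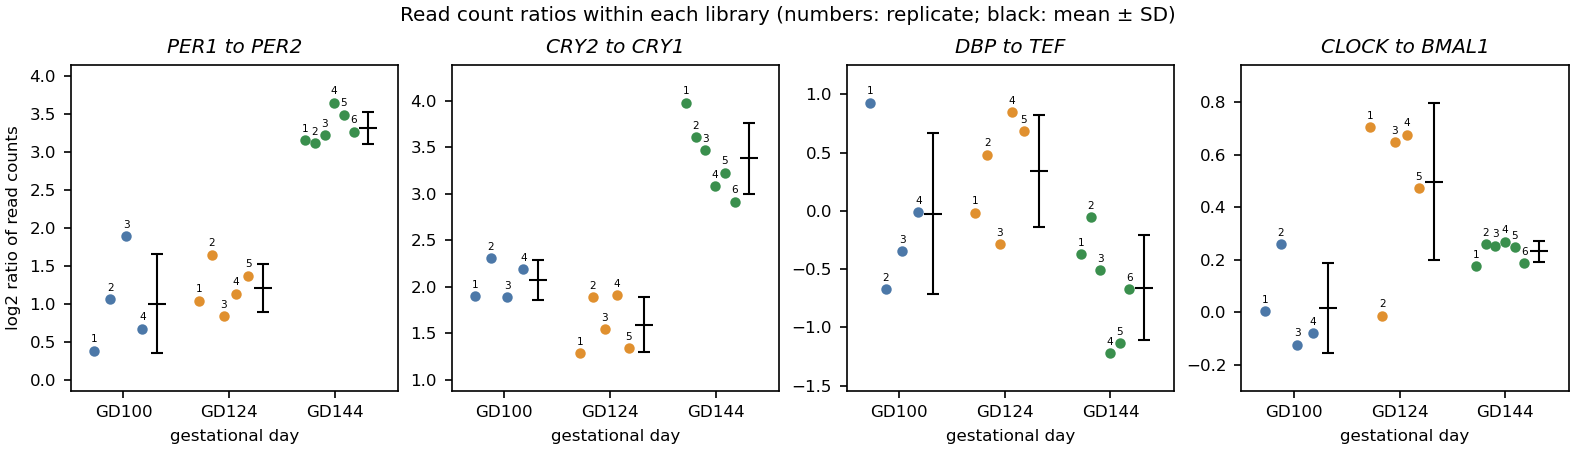
Log2 ratio of read counts of 2 genes in each library (vertical axis) by stage, with replicate numbers and mean ± SD in black. PER1 to PER2 and CRY2 to CRY1 are higher in all 6 GD144 libraries than in any earlier library, and DBP to TEF is lower at GD144 than at GD124 in most libraries, with some overlap.

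Other genes of the clock pathway were looked up as a fixed list, of which 40 were present and 37 tested. In the earlier interval 10 rose and 7 fell, in the later interval 10 rose and 7 fell, and over the whole span 13 rose and 9 fell. That is 17, 17 and 22 of 37 genes, against 34%, 27.5% and 55% of all tested genes called in the same comparisons, and the last lies near the background. BMAL1 stood at 8.03 ± 1.04, 9.56 ± 1.57 and 15.1 ± 2.34 CPM (SD, n = 4, 5 and 6) and rose in the later interval by log2 0.66 ± 0.14 (SE, edgeR adjusted p = 0.0026), so both partners of the activating pair rose between GD124 and GD144. NPAS2, a substitute for CLOCK, went from 2.58 ± 1.58 to 3.66 ± 0.944 and 3.71 ± 0.864 CPM (SD, n = 4, 5 and 6) and passed in none of the 3 pairwise edgeR tests with all libraries. Without GD100 replicate 1 the earlier change of NPAS2 was log2 0.98 and passed (edgeR adjusted p = 0.0266), as did the whole span (0.0127).

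RORA, an activator of BMAL1, rose in each interval and overlapped in neither, at 9.16 ± 0.787, 20.5 ± 2.64 and 52.3 ± 11.9 CPM (SD, n = 4, 5 and 6). NFIL3, which opposes DBP, TEF and HLF at their shared element, rose by log2 0.72 ± 0.24 (SE, edgeR adjusted p = 0.0317) and log2 0.99 ± 0.22 (SE, edgeR adjusted p = 0.00312). HLF, the third member of the PAR bZIP family, rose by log2 0.97 ± 0.17 (SE) and log2 1.26 ± 0.15 (SE), with edgeR adjusted p of 0.000654 and 2.77e-05. In the later interval the 3 family members therefore had different results, with DBP lower, HLF higher and TEF not called. The earlier call of NFIL3 was lost without GD100 replicate 2 or 3 or without GD124 replicate 1, 4 or 5, at an edgeR adjusted p of at most 0.109.

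BHLHE40 and BHLHE41 (DEC1 and DEC2), repressors that compete with CLOCK and BMAL1 for their binding site, went in opposite directions in the later interval. BHLHE40 rose from 2.01 ± 0.793 to 9.49 ± 5.03 and 33.8 ± 5.89 CPM (SD, n = 4, 5 and 6), with log2 2.25 ± 0.35 and 1.83 ± 0.30 (SE) and edgeR adjusted p of 0.000371 and 0.000326. BHLHE41 fell in the later interval from 11.8 ± 1.62 to 4.69 ± 3.13 CPM (SD), by 1.34 ± 0.37 on the log2 scale (SE, edgeR adjusted p = 0.014). Both overlap another gene in the annotation. CIART, a repressor of CLOCK and BMAL1, was low, at 0.838 to 3.13 CPM in the 15 libraries, and passed in none of the 3 pairwise edgeR tests.

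Of the remaining list members, USP2, a deubiquitinase gene known as a clock output, rose from 1.67 ± 0.502 to 15.04 ± 6.56 CPM (SD, n = 5 and 6) in the later interval (log2 3.17 ± 0.33, edgeR adjusted p = 1.18e-05). WEE1, a kinase gene that delays entry into mitosis and is known as a clock output, fell from 59.03 ± 6.17 to 31.6 ± 6.40 CPM (SD, n = 5 and 6), by 0.90 ± 0.15 on the log2 scale (SE, edgeR adjusted p = 0.000296), and the stages did not overlap. Its change differed between the intervals by log2 -1.15 ± 0.26 (SE, edgeR adjusted p = 0.0186), a call that was lost without GD124 replicate 3 or 4 (0.0508 for each) and with total counts as the only scaling (0.0764). For USP2 this difference was log2 3.34 ± 0.60 (SE, edgeR adjusted p = 0.00761). PPARGC1A, a coactivator of ROR receptors, and NOCT, a rhythmic phosphatase gene of the liver, rose in both intervals. For NOCT the later change was log2 1.42 ± 0.32 (SE, edgeR adjusted p = 0.00417) and for PPARGC1A it was log2 1.01 ± 0.20 (SE, edgeR adjusted p = 0.00165). BTRC, part of the ubiquitin ligase that marks PER proteins for breakdown, fell by 0.94 ± 0.22 on the log2 scale (SE, edgeR adjusted p = 0.00512) in the same interval. FBXW7, an F-box protein gene, fell in the earlier interval by 0.83 ± 0.14 on the log2 scale (SE, edgeR adjusted p = 0.000538). When replicate 1 alone stood for GD100 the earlier changes of BTRC (log2 -0.34), PPARGC1A (log2 1.07) and NOCT were not called, at edgeR adjusted p of 0.439, 0.0603 and 0.244. The earlier call of NOCT was also lost without GD100 replicate 1, 2 or 4 or GD124 replicate 1 or 4.

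A glucocorticoid list of 12 tested genes was looked up beside PER1. It held responsive genes, the receptor gene NR3C1 and HSD11B1, whose enzyme forms active cortisol. In the later interval 10 of the 12 rose, NR3C1 and HSD11B1 among them, and 0 fell. At an unadjusted edgeR p under 0.05 the count was also 10. In the earlier interval, in which PER1 was not called, 10 of these genes rose and 1, FKBP5, fell. Of all tested genes 12.1% rose and 15.4% fell in the later interval, and 16.6% rose and 17.4% fell in the earlier one. The median log2 change of the list was 0.99 in the earlier and 1.55 in the later interval. The list was chosen with earlier results of these data known, so it is no independent comparison. The part of glucocorticoids in the PER1 result was not tested.

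Within a stage the clock genes differed in how much they varied. The biological coefficient of variation, which the edgeR model takes over all libraries after removing stage, was 14.4% for CRY2, 16.9% for CLOCK, 18.3% for PER1 and 18.7% for NR1D2. It was 36.5% for PER3, 34% for DBP and 29.3% for PER2, and the median of all tested genes was 26.3%. Of all tested genes 1.21% had a smaller coefficient than CRY2, and 68.6% had a smaller one than PER3. CRY1, NR1D1 and TEF lay at 26.7, 26.9 and 20.4%. The spread of PER3 was largest at GD144, with an SD of 0.67 in log2 CPM, and that of DBP was largest at GD100, with 0.743.

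At GD144 the same libraries stood high or low for several clock genes. CLOCK was at 15.7, 14.5 and 15.9 CPM in replicates 1 to 3 and at 21.6, 20.1 and 19.0 CPM in replicates 4 to 6. BMAL1 followed, with 13.9, 12.1 and 13.4 CPM and 17.9, 16.9 and 16.7 CPM in the same order. CRY1 had its 3 lowest libraries in replicates 1 to 3 as well, and PER3 its 3 highest. DBP was at 43.0, 48.9 and 27.4 CPM in replicates 1 to 3 and at 19.8, 23.7 and 29.0 CPM in replicates 4 to 6, so replicates 1 and 2 were highest and replicate 3 lay among the others. The summed endothelial markers were at 547, 484 and 431 CPM in replicates 1 to 3 and at 659, 628 and 573 CPM in replicates 4 to 6. The sum over the glucocorticoid list, HSD11B1 included, was at 2141, 2078 and 2323 CPM and at 3332, 2502 and 2586 CPM in the same order. Both sums were thus also lowest in replicates 1 to 3. The sum over 3 megakaryocyte markers was highest in replicates 1 to 3, at 7.41, 5.22 and 10.006 CPM. In replicates 4 to 6 it was at 3.57, 3.51 and 3.67 CPM, with 2, 1 and 0 of the 3 markers without reads. The hepatocyte, erythroid, macrophage, stellate cell, bile duct and proliferation sums did not divide between replicates 1 to 3 and 4 to 6. Within stages, over all 15 libraries, the endothelial sum had no relation that passed with CLOCK, CRY1, PER3 or DBP (Pearson, permutation adjusted p at least 0.554 over 100 relations). The part of these sums in the order of the clock genes at GD144 alone was not tested. PER1 showed no such order, with 62.6, 56.4, 51.8, 61.3, 49.9 and 60.3 CPM in replicates 1 to 6.

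**Figure D4:**
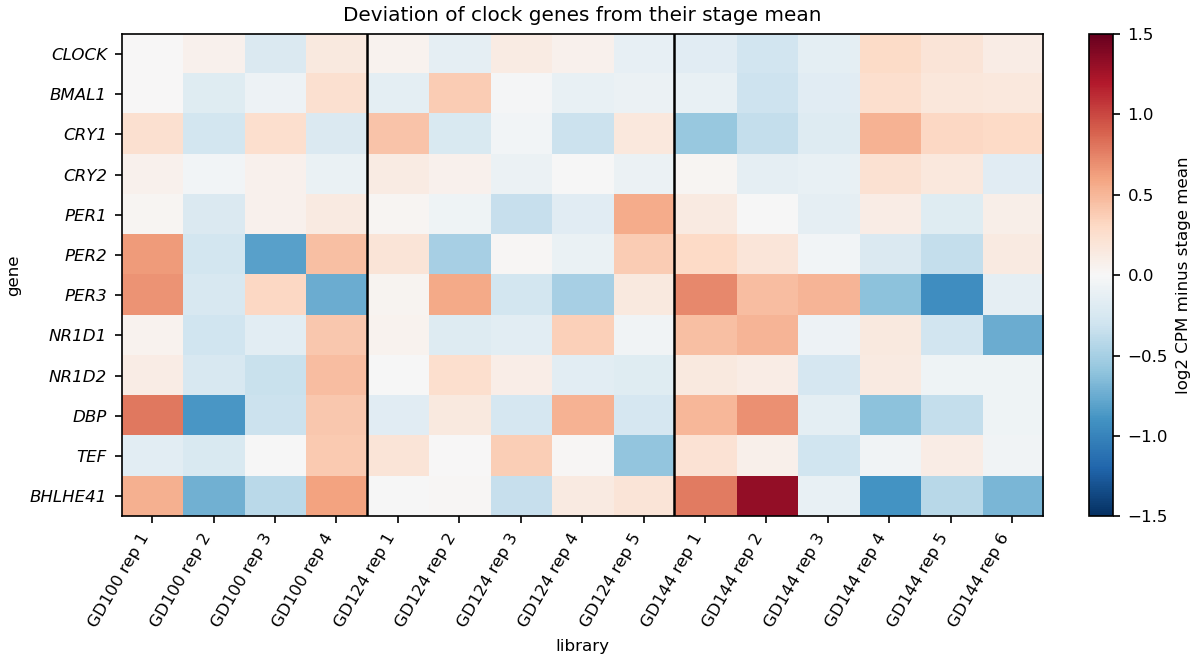
Log2 CPM minus the mean of its stage (colour) for the 10 clock genes, BMAL1 and BHLHE41 (rows) in the 15 libraries (columns), with black lines between stages. In the GD144 block CLOCK, BMAL1 and CRY1 are below their stage mean in replicates 1 to 3 and above it in replicates 4 to 6, and PER3 is the reverse.

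Correlations between the 10 genes were computed over all 15 libraries after the stage mean was subtracted from log2 CPM, so that differences between stages do not enter. Values of a library share its scaling and depth. Of 45 pairs, 0 passed a permutation test within stages (100000 draws, two-sided) after adjustment over the 45 pairs, 3 had an unadjusted p under 0.05, and with Spearman's rho 0 passed. The strongest relation was between PER3 and CLOCK, which moved in opposite directions (Pearson r = -0.828, permutation p = 0.00216, adjusted p = 0.0972; Spearman rho = -0.846, permutation p = 0.00152, adjusted p = 0.0684). Without GD144 replicate 5 and GD100 replicate 4, the 2 libraries farthest from the median for PER3, r was -0.801. Leaving out GD100 replicate 1 brought the adjusted permutation p to 0.0414 with r at -0.898, and leaving out GD100 replicate 3 brought it to 0.0387, while total counts as the only scaling gave r of -0.71 and an adjusted permutation p of 0.466. The relations of PER3 and CLOCK to the summed level of 3 megakaryocyte markers within stages did not pass (r = 0.762 and -0.748, rho = 0.832 and -0.814, permutation p = 0.00339 and 0.00789, adjusted p = 0.197 for both over 100 relations). At GD144 these markers averaged 4.98 (ITGA2B), 0.414 (GP9) and 0.167 CPM (GP1BB). TEF had similar p-values with the erythroid and proliferation sums (r = -0.508 and -0.608, permutation p = 0.00434 and 0.00673, adjusted p = 0.197 for both). The part of the megakaryocyte sum in the relation between PER3 and CLOCK was not tested.

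The other pairs were weaker. NR1D2 and TEF had r = 0.602 and rho = 0.55 (permutation p = 0.0269 and 0.0573, adjusted p = 0.547 and 0.514), with r = 0.548 without the 2 libraries farthest from the median. NR1D1 and DBP had r = 0.591 and rho = 0.589 (permutation p = 0.0365 and 0.0474, adjusted p = 0.547 and 0.514), with r = 0.69 without such 2 libraries. PER2 and DBP had r = 0.552 (permutation p = 0.121) and rho = 0.571 (permutation p = 0.0822). Paralogs showed no relation that passed, with r = 0.389 for PER1 and PER2, 0.217 for PER1 and PER3, 0.157 for PER2 and PER3, 0.49 for CRY1 and CRY2 and 0.426 for NR1D1 and NR1D2 (permutation p of 0.106 to 0.623, rho of 0.221 to 0.511).

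**Figure D5:**
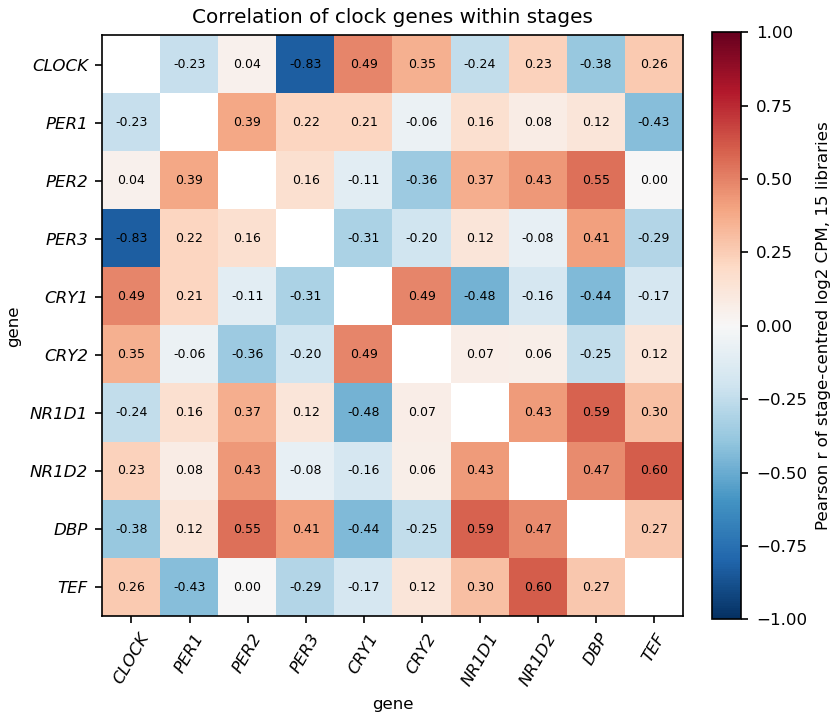
Pearson r of stage-centred log2 CPM over 15 libraries for each pair of the 10 clock genes (rows and columns), with the value in each cell. CLOCK and PER3 form the darkest cell at -0.83, and the largest positive value is 0.60 for NR1D2 and TEF.

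In the 6 GD144 libraries alone, 7 of 45 pairs had an exact permutation p under 0.05 and 0 passed after adjustment (lowest adjusted p = 0.259). CRY1 and CLOCK rose and fell together (r = 0.942, rho = 0.943, exact permutation p = 0.0194 and 0.0167), although over all 15 libraries r was 0.488 (permutation p = 0.124). CLOCK and DBP moved in opposite directions (r = -0.892, rho = -0.943, exact permutation p = 0.0153 and 0.0167), as did CRY1 and DBP (r = -0.877, rho = -0.886, exact permutation p = 0.0194 and 0.0333) and PER3 and CRY1 (r = -0.907, rho = -0.886, exact permutation p = 0.0319 and 0.0333). Over all 15 libraries r was -0.381 for CLOCK and DBP, -0.439 for CRY1 and DBP and -0.314 for PER3 and CRY1 (permutation p = 0.204, 0.121 and 0.318). Within GD100 and within GD124 the sign was positive for CLOCK and DBP and for PER3 and CRY1, and for CRY1 and DBP it was positive within GD100 and negative within GD124. For CRY1 and CLOCK it was negative within GD100 and positive within GD124. The remaining pairs with p under 0.05 at GD144 were PER3 and CLOCK (r = -0.904), PER2 and PER3 (r = 0.8615) and PER2 and DBP (r = 0.849), at exact permutation p of 0.0361 to 0.0403. For PER3 and CLOCK the sign was negative at every stage. For PER2 and PER3 it was negative at both earlier stages, and for PER2 and DBP it was negative within GD124. CLOCK and BMAL1, a pair outside these 45, had r = 0.984 in these 6 libraries (exact permutation p = 0.00556, unadjusted). Their sign was positive within GD100 and negative within GD124. Of all pairs with the further clock genes, 0 passed after adjustment in these 6 libraries. Over all 15 libraries CLOCK and BMAL1 had r = 0.52 and rho = 0.525 (permutation p = 0.0727 and 0.0801), and r was 0.359 without the 2 libraries farthest from the median for CLOCK.

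Of 90 pairs of a clock gene with one of 9 further clock genes, among them BMAL1 and BHLHE41, 1 passed over the 15 libraries. DBP and BHLHE41 rose and fell together (r = 0.853, rho = 0.8286, permutation p = 0.00053 and 0.00259, adjusted p = 0.0477 and 0.233), and r was 0.828 without the 2 libraries farthest from the median. The adjusted p rose above 0.05 when any of 13 single libraries was left out, all except GD124 replicate 5 and GD144 replicate 6, with r between 0.827 and 0.888.

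Among 12236 tested genes with a symbol and a mean of at least 1 CPM, those most like each clock gene were found by r of stage-centred log2 CPM over the 15 libraries, as a description without a test. For PER1 they were RFX7 (0.844), DNAJC22 (0.833) and HYCC2 (0.83). For PER2 they were CHD3 (0.91), ZNF502 (0.893) and STING1 (0.881), and for PER3 PIEZO2 (0.882), C7H14orf93 (0.862) and CDC42BPG (0.86). CRY1 was nearest to ZNF239 (0.868), HEY1 (0.864) and PAQR3 (0.838), CRY2 to BTAF1 (0.892), LIN52 (0.865) and FOXN2 (0.856), and CLOCK to WASL (0.868), UBR3 (0.864) and ATP2A2 (0.849). No clock gene was among the 3 nearest of another. NR1D1 was nearest to DHTKD1 (0.909), SFT2D2 (0.902) and LYSMD2 (0.876), and NR1D2 to GPC4 (0.919), RO60 (0.892) and SEC23A (0.889). DBP was nearest to PLEKHG3 (0.941), SCML1 (0.922) and NNAT (0.917), and BHLHE41 ranked 35 in its list. TEF was nearest to CMIP (0.901), TIGD5 (0.889) and ADD3 (0.886). In the list of PER3, CLOCK ranked 8 from the negative end.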

How the data were processed

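The authors deposited 1 table of estimated counts of reads per gene with 1 column for each of the 15 libraries. DRAGEN is named in the submitters' processing notes. The sources used here do not name its version, a genome build, an annotation or a strand setting. Of the deposited estimated counts 6.549% were fractional, and they were rounded to whole numbers. Columns were matched to libraries by the sample code in the labels.

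The test was edgeR's quasi-likelihood method (version 4.0.16, R 4.3.3) with TMM factors, filterByExpr and robust estimation, in 1 model of 15 libraries and 3 stages. P-values were adjusted by Benjamini-Hochberg over 16977 genes. The SE is the log2 fold change divided by the square root of F. Correlations used log2 CPM with a prior count of 2. Library totals of 24215612 to 38247295 put 3 counts, taken as the floor of detection, at 0.0784 to 0.124 CPM before TMM scaling, for counting error only. Named genes are the 10 members, 9 further clock genes, up to 4 called genes per comparison of the remaining clock list, and the 3 genes most like each member. Of the 9, 1 is not reported here. This model was first tested on simulated data with known changes. Members and lists were chosen with earlier results of these data known. Count ratios were added after the values were seen. Alternatives were other scalings, filters and libraries left out, a replicate block and DESeq2 1.42.0. Replicate numbers did not pair the libraries.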

Additional observations from a re-analysis of the deposited data

Results flagged for a closer look

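PER1 and CRY2 changed differently in both intervals by the edgeR test of the difference. The log2 change of PER1 from GD124 to GD144 exceeded that from GD100 to GD124 by 1.73, from 0.31 to 2.04 (edgeR adjusted p = 0.0034). For CRY2 the difference was 2.43, from -0.51 to 1.93 (edgeR adjusted p = 1.00e-05). The intervals last 24 and 20 days and share the GD124 libraries, which the test takes into account. Of 30 groups of libraries examined (10 genes at 3 stages), 0 held a library that lay far from the others by Dixon's test, where chance gives about 1 in 20.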

How the results depend on the processing

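Of 940 combinations of a clock gene result and a setting, 856 kept direction and side of the threshold, 30 lost a call, 8 gained one and 46 changed sign, and the cause was not tested. With the replicate number as a block, 2 clock genes were called between GD124 and GD144 instead of 5, since CLOCK (edgeR adjusted p = 0.0941), NR1D2 (0.106) and DBP (0.0591) no longer passed, and 325 genes in place of 1002 changed between intervals. Correlations of deviations between libraries of the same number were -0.155 to 0.144, so the numbers are not taken as pairs. With the block PER2 stood at log2 0.040 (GD124 against GD100), TEF at 0.013 (GD144 against GD124) and PER3 at 0.049 (GD144 against GD100). When replicate 1 alone stood for GD100, 3167 genes were called between GD100 and GD124 instead of 5773, and PER3 (log2 -0.13) and NPAS2 (-0.37) changed sign there. Over the whole span CRY1 (-0.072), NPAS2 (-0.34) and CIART (-0.14) did so, and the PER2 difference between intervals was 0.50. That difference was 0.0030 with DESeq2 size factors and 0.19 with total counts alone. Between GD124 and GD144 PER2 stood at 0.032 with total counts alone, and TEF at 0.062 with total counts alone, 0.0033 with the 20 most abundant genes left out of the scaling and 0.017 without the filter, where PER2 stood at 0.0029 between GD100 and GD124. Total counts alone moved the median log2 change of all genes to -0.163 in the earlier interval. It gave 1808 higher and 4045 lower genes there, against 2825 and 2948, and 2520 and 2139 in the later one, against 2046 and 2617.

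With 1 library left out at a time, the clock genes called numbered 3 to 5 in each interval, 5 to 6 over the whole span, 5 to 7 between any stages and 2 to 3 for the difference between intervals. In the later interval 3 were called without GD124 replicate 4 or 5 or GD144 replicate 4 or 5. All genes called numbered 4169 to 6234, 3724 to 5051 and 8546 to 9321 in the 3 comparisons, 8589 to 9693 between any stages and 379 to 1743 for the difference between intervals. Correlated pairs that passed numbered 0 to 1, both among the 10 genes and with the other clock genes. Ranges that crossed 0 were, for GD124 against GD100, PER2 -0.23 to 0.23, CRY1 -0.15 to 0.060 and USP2 -0.36 to 0.13. For GD144 against GD124 they were PER2 -0.16 to 0.053, TEF -0.15 to 0.073 and NPAS2 -0.085 to 0.17. For GD144 against GD100 they were PER2 -0.25 to 0.18, PER3 -0.24 to 0.21 and DBP -0.50 to 0.017. The PER2 difference between intervals ran from -0.28 to 0.22, the correlation of PER2 and PER3 from -0.047 to 0.37, and the earlier change of the log2 ratio of PER1 to PER2 from -0.00045 to 0.50 and of PER1 to PER3 from -0.43 to 0.079. Leaving out GD100 libraries leaves 1 to 3 libraries at that stage, and a lone library is assumed to vary like the other stages. A planned search of promoters for motifs was not run. At this depth low genes such as CIART limit what can be detected.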
